A study of Rattus norvegicus with 170 samples.

Results

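Mmp13-high beta cells are the insulin-expressing cells of GNF4877-treated rat islets that carried mRNA for *Mmp13*, and they are set here against the Mmp13-low cells of the same chip. The members were selected on measured values: a cell with reads on the listed transcripts of 300000 RPM (mapped reads of a transcript scaled to a common total per cell) or more and with *Ins1* of 1000 RPM or more was called Ins1-high, and was chosen by its *Mmp13* level as Mmp13-high at 10 RPM or more and as Mmp13-low under 10 RPM. There were 16 Mmp13-high and 42 Mmp13-low cells among 58 Ins1-high cells, out of 84 GNF4877-treated cells and 170 cells in the whole series. The islets came from wild-type Sprague Dawley rats, 8 week old males, were cultured whole at 5.5 mM glucose over 48 h, with 3 µM GNF4877, an aminopyrazine that inhibits DYRK1A and GSK3B, or with its vehicle, 0.1% DMSO, and were then dispersed and captured cell by cell on Fluidigm C1 chips. The DMSO arm held 9 Mmp13-high and 66 Mmp13-low cells among its 75 Ins1-high cells, chosen by the same values. No source used here ties a cell to an animal or a culture, so each arm counts as 1 sample with cells that do not replicate it, and the treatment cannot be told apart from the chip or lane. Since the groups were made from a gene measured in the same cells, everything below is a description without a test, and intervals of shares (exact Clopper-Pearson, 95%) cover counting error only.

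*Mmp13* encodes collagenase 3, a secreted metalloproteinase that cuts fibrillar collagens and is best known from cartilage, bone and remodelling tissue. Its transcription is classically driven through an AP-1 site close to the start of the gene, and its activity is held in check by tissue inhibitors of metalloproteinases. *Akr1b8* encodes an aldo-keto reductase that reduces reactive aldehydes, and *Ccnb1* encodes cyclin B1, which accumulates as cells approach mitosis.

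*Mmp13* itself split the Ins1-high GNF4877 cells with a wide gap. In the 16 Mmp13-high cells it ranged from 32.9 RPM through a median of 538 RPM to 12580 RPM, and the 3 highest cells held 69.2% of the summed *Mmp13* RPM of the group. The cells just inside the threshold stood at 32.9 RPM (53 reads) and 49.7 RPM (29 reads). The cells just outside it stood at 4.22 RPM (5 reads) and 3.64 RPM (3 reads), so that no cell lay between 4.22 and 32.9 RPM. Of the 42 Mmp13-low cells, 20 had no *Mmp13* read and the median was 0.487 RPM. These values chose the groups and are no result. In DMSO the gap was narrower, with the lowest Mmp13-high cell at 12.2 RPM and the highest Mmp13-low cell at 9.43 RPM, and the 9 Mmp13-high cells reached a median of 147 RPM and at most 421 RPM.

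The label of a beta cell held for both groups in most of the markers, with exceptions. *Ins1* spanned 2435 to 61209 RPM in Mmp13-high cells (median 28393 RPM) and 2805 to 184281 RPM in Mmp13-low cells (median 19414 RPM). *Ins2*, the second rodent insulin gene, had medians of 7513 and 4705 RPM with overlapping ranges. *Iapp*, which encodes the co-secreted peptide amylin, had medians of 3822 and 1893 RPM. *Ins1* was part of the selection, so its presence says nothing of the label. The ranges of *Ins2* and *Iapp* overlapped between the groups. The mean log2(RPM + 1) of Mmp13-high cells was higher by 0.36 for *Ins2* and by 0.99 for *Iapp*. The log2 ratio of (mean RPM + 1) was -0.55 and 0.63. The glucose transporter gene *Slc2a2* had medians of 1451 and 1136 RPM. *Mafa*, which encodes a transcription factor of mature beta cells, had no read in any of the 58 cells. Of the 22 listed markers other than *Ins1* in the table, all but *Mafa* (21) had a read in each group, and of the 19 considered for the comparison (10 RPM or more in at least 8 of the 58 cells) 0 were counted higher or lower. Of all genes considered, 5.23% were counted higher and 3.35% lower. The marker sum without *Ins1* ran from 554 to 31021 RPM in Mmp13-high cells (median 20448 RPM) and from 951 to 157974 RPM in Mmp13-low cells (median 14654 RPM), and *Ins2* had the highest mean RPM of the list, a value not divided by transcript length. The lowest sum among the Mmp13-high cells came from cell 44, with *Ins1* of 2435 RPM, *Ins2* of 132 RPM and *Iapp* of 7.11 RPM.

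Hormones of other islet cells were low in the Mmp13-high cells. *Gcg*, the glucagon gene of alpha cells, was between 6.25 and 185 RPM in Mmp13-high cells and between 7.77 and 37011 RPM in Mmp13-low cells, with medians of 79.3 and 73.7 RPM. *Sst*, the somatostatin gene of delta cells, stayed at or under 7.83 RPM in Mmp13-high cells and reached 15778 RPM in a Mmp13-low cell. A second hormone at 1000 RPM or more was present in 1 of 16 Mmp13-high cells (cell 38, *Ppy* of 2293 RPM) and in 3 of 42 Mmp13-low cells. Cells holding a second hormone were therefore rare in either group.

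Because collagenase 3 is mostly a product of stromal cells, markers of other cell types were read out for each group. Of 26 mesenchymal markers, 17 had a read in the Mmp13-high cells and 19 in the Mmp13-low cells, and the sum had a median of 220 RPM (3.79 to 1680 RPM) against 103 RPM (7.15 to 906 RPM). *Timp1*, which beta cells can also express, had the highest mean RPM of that list in both groups, 369 and 86.6 RPM. Several stromal genes were at or near 0: *Col1a1* did not exceed 1.71 RPM and *Vim* did not exceed 5.86 RPM in any Mmp13-high cell, while *Dcn*, *Lum*, *Pdgfrb* and *Des* had no read there. *Fn1*, the fibronectin gene, was the other way, with a mean of 38.9 RPM in Mmp13-high and 8.68 RPM in Mmp13-low cells and 2 cells of each group at 10 RPM or more, and *Rgs5*, a pericyte gene, had means of 2.26 and 0 RPM. The median sum of 13 endothelial markers, of which 3 had a read, was 0.616 RPM in Mmp13-high and 0 RPM in Mmp13-low cells, and *Pecam1*, *Cdh5* and *Kdr* had no read in a Mmp13-high cell. Among 15 immune markers, 7 had a read in Mmp13-high and 8 in Mmp13-low cells, with median sums of 7.03 and 11.4 RPM, and *Ptprc*, *Csf1r* and *Lyz2* had no read in the Mmp13-high cells. *Cd74* had the highest mean RPM of the immune list (56.6 and 60.4 RPM). Acinar markers (3 of 16 with a read in Mmp13-high cells, 6 of 16 in Mmp13-low cells) summed to medians of 1.69 and 2.38 RPM, led by *Bhlha15*, with *Cpa1*, *Pnlip* and *Ptf1a* at 0 in both groups. Schwann cell markers (2 of 7 in each group) summed to medians of 1.63 and 2.40 RPM, with *Sox10* at 0. Duct markers were the exception to these low levels, since the keratin genes of simple epithelia are in that list: 10 of 13 had a read in Mmp13-high cells and 11 of 13 in Mmp13-low cells, the median sums were 1187 and 891 RPM, *Krt8* had the highest mean (631 and 655 RPM), and *Muc1* was at 0. *Sox9*, the duct transcription factor gene, had no read in the Mmp13-high cells.

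Depth differed little between the GNF4877 groups. Mapped reads ran from 583474 to 2171567 per Mmp13-high cell (median 1580524) and from 661387 to 2097734 per Mmp13-low cell (median 1339238). The median number of genes with a read was 7195 and 6913, and 4968 and 4862 after each cell was thinned to 100000 reads.

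*Akr1b8* was present in a larger share of Mmp13-high cells, but its highest level was in a Mmp13-low cell. At 10 RPM or more, 7 of 16 Mmp13-high cells were positive (43.8%, interval 19.8% to 70.1%), against 8 of 42 Mmp13-low cells (19%, 8.60% to 34.1%), and the intervals overlap. The positive Mmp13-high cells spanned 50.1 to 3242 RPM, and the highest Mmp13-low cell stood at 15479 RPM. That cell decides the order of the means: the mean was 450 RPM in Mmp13-high cells and 524 RPM in Mmp13-low cells, and 159 RPM in Mmp13-low cells without it. Seen from the other side, 7 of the 15 *Akr1b8*-positive cells were Mmp13-high (46.7%, 21.3% to 73.4%). *Akr1b8* was thus found with and without *Mmp13*, and most Mmp13-high cells were under 10 RPM for it. In DMSO, 0 of 9 Mmp13-high cells were *Akr1b8*-positive (upper bound 33.6%), with at most 1.11 RPM, while 8 of 66 Mmp13-low cells were (12.1%, 5.38% to 22.5%). Whether the pairing differs between the arms was not tested.

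*Ccnb1* at 10 RPM or more was found in 5 of 16 Mmp13-high cells (31.2%, 11% to 58.7%) and in 6 of 42 Mmp13-low cells (14.3%, 5.43% to 28.5%), again with overlapping intervals. Of the 11 *Ccnb1*-positive cells, 5 were Mmp13-high (45.5%, 16.7% to 76.6%). The Mmp13-high positives held 54.7 to 912 RPM of *Ccnb1*, and the highest Mmp13-low cell held 876 RPM. *Ccnb1*-positive cells therefore occurred on either side of the *Mmp13* threshold, and some of them were low in *Mki67* (2.73 RPM in Mmp13-high cell 19). *Mki67*, which marks cycling cells, was at 10 RPM or more in 4 of 16 and 8 of 42 cells (25% and 19%). Only cell 36 was positive for *Mmp13*, *Akr1b8* and *Ccnb1* together, at 361, 3242 and 200 RPM, and no Mmp13-low cell held both *Akr1b8* and *Ccnb1*. *Akr1b8* or *Ccnb1* was thus present in 11 of 16 Mmp13-high cells (68.8%, 41.3% to 89%) and 14 of 42 Mmp13-low cells (33.3%, 19.6% to 49.5%). In DMSO, *Ccnb1* was at 0 RPM in all 9 Mmp13-high cells, and at 10 RPM or more in 1 of 66 Mmp13-low cells (1.52%).

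**Figure D1:**
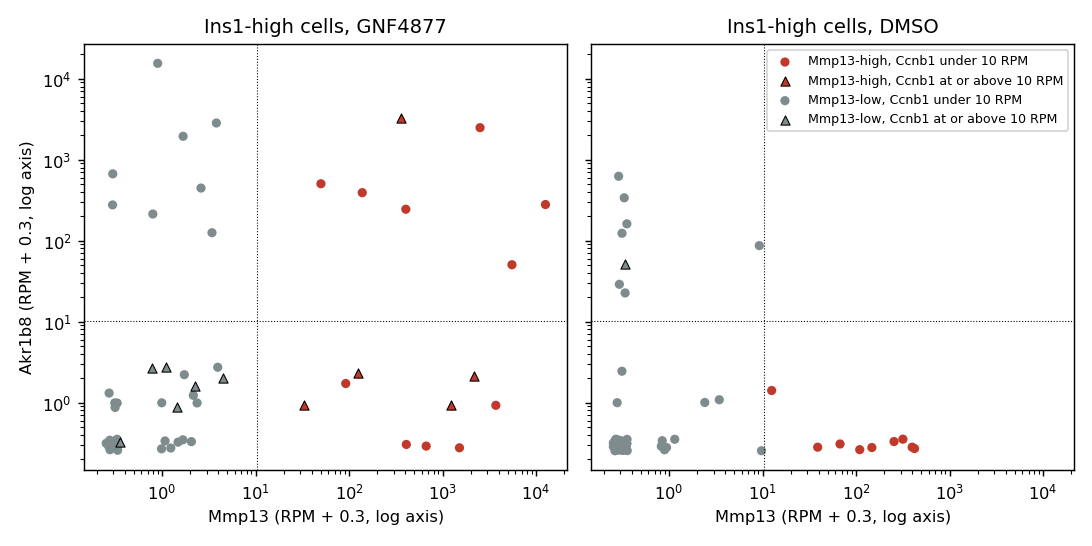
*Mmp13* (x axis) and *Akr1b8* (y axis) in each Ins1-high cell, both as RPM + 0.3 on log axes with cells at 0 spread slightly, for GNF4877 (left, 58 cells) and DMSO (right, 75 cells). Points are cells, triangles have *Ccnb1* of 10 RPM or more, dotted lines mark 10 RPM, and the upper right field holds 7 GNF4877 cells and 0 DMSO cells.

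Across genes, the groups were compared by the difference of the mean log2(RPM + 1) per cell (Mmp13-high minus Mmp13-low) and by the log2 ratio of (mean RPM + 1), and a gene was counted where both were at 1 or more, or both at -1 or less. Apart from *Mmp13*, 8387 genes were considered, of which 439 (5.23%) were counted higher in Mmp13-high cells and 281 (3.35%) lower. The median over all genes was 0.07 for the difference and -0.07 for the log2 ratio. Without the *Ccnb1*-positive cells, 399 of 7557 genes were counted higher and 528 lower, so the balance of the directions turned.

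The largest differences among the genes counted higher were those of *Fam70b*, *Cd24* and *Ppap2a*. *Cd24*, which encodes a small glycosylphosphatidylinositol-anchored surface glycoprotein, ran from 1.46 through 1027 to 5366 RPM in Mmp13-high cells and from 0 through 38.3 to 4297 RPM in Mmp13-low cells. It was at 10 RPM or more in 13 of 16 and 24 of 42 cells, and its difference was 3.65. The groups overlapped at both ends, since 3 Mmp13-high cells were under 10 RPM. *Fam70b*, now named *Tmem255b* and coding for a membrane-spanning protein, had the largest difference, 3.76, with 9 of 16 cells at 10 RPM or more against 5 of 42. Its median was 77.7 RPM in Mmp13-high and 0 RPM in Mmp13-low cells, and 832 RPM was the highest Mmp13-low value. *Ppap2a* (now *Plpp1*), which encodes a phosphatase of lipid phosphates at the cell surface, had medians of 120 and 5.25 RPM and a difference of 3.38, with 14 of 16 and 18 of 42 cells at 10 RPM or more. For each of these 3 genes, the share of cells at 10 RPM or more was larger among Mmp13-high cells, and some Mmp13-low cells reached the same levels.

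The same genes were also counted higher in the Mmp13-high cells of the DMSO arm, which the GNF4877 groups did not use. In DMSO, 405 of 10495 genes (3.86%) were counted higher and 862 (8.21%) lower, and over the 8179 genes considered in both arms these counts were 296 (3.62%) and 650 (7.95%). *Cd24* was at 10 RPM or more in 9 of 9 Mmp13-high DMSO cells and 48 of 66 Mmp13-low DMSO cells (medians 1410 and 83.5 RPM). *Fam70b* was at that level in 8 of 9 and 12 of 66 cells. *Ppap2a* was at that level in 9 of 9 and 48 of 66 cells. All 3 genes had thus the same direction on both chips, with differences of 4.15, 4.66 and 2.85 in DMSO. Of the 20 genes with the largest differences in GNF4877, 6 were counted higher in DMSO as well (30%), adding *Man1b1*, *Errfi1* and *Camlg*, and 0 were counted lower. In GNF4877 *Man1b1* was not counted without cell 24 (log2 ratio 0.97), and *Camlg* not without cell 19 (0.96) or without *Ccnb1*-positive cells. *Errfi1*, which encodes a feedback inhibitor of the epidermal growth factor receptor, had medians of 136 and 0.866 RPM in GNF4877 and 480 and 75 RPM in DMSO. Of the whole set of 439 genes, 409 were considered in DMSO, where 39 (9.54%) were counted higher and 41 (10.0%) lower, so that most of the list was not shared, while the shares over all genes considered in both arms were 3.62% and 7.95%. The 39 shared genes are 13.2% of the 296 counted higher in DMSO. Of the 279 genes counted lower in GNF4877 and considered in DMSO, 43 (15.4%) were lower there too and 6 (2.15%) higher, and these 43 are 6.62% of the 650 lower in DMSO.

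The 39 shared genes follow no list, and 6 of them are named here, picked after their values were seen. *Gad1*, which encodes a glutamate decarboxylase, had medians of 219 and 64.4 RPM in GNF4877 and 618 and 201 RPM in DMSO. *Gad2*, which encodes its partner enzyme and a well-known autoantigen of beta cells, had medians of 59.6 and 0 RPM in GNF4877 and 105 and 26.1 RPM in DMSO. Its log2 ratio in GNF4877 of 1.05 became 0.07 without cell 19. *Cited2*, *Cox4i2*, *Gbe1* and *Egln3* were counted higher in both arms, with differences in GNF4877 of 1.68, 2.01, 2.44 and 1.26, and *Egln3* was not counted there without cell 64. *Cited2* encodes a transcription cofactor and *Cox4i2* a subunit of cytochrome c oxidase, while *Gbe1* encodes the branching enzyme of glycogen synthesis.

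**Figure D2:**
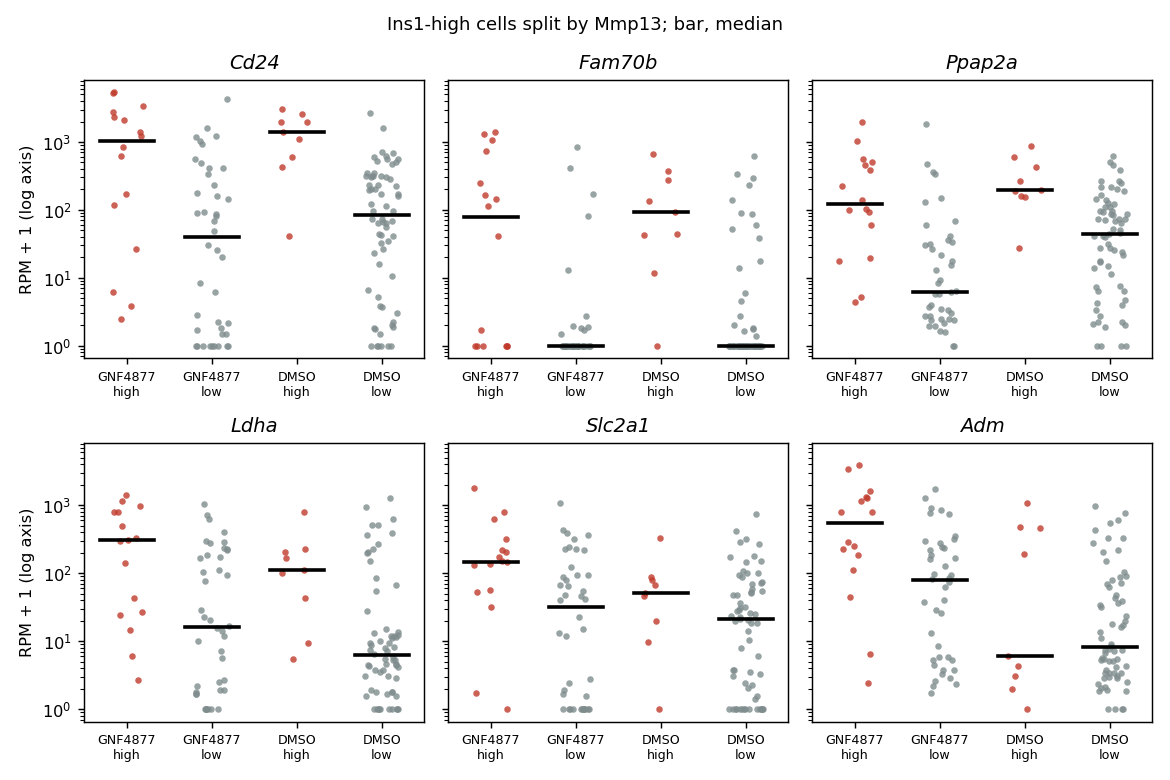
RPM + 1 on a log axis of *Cd24*, *Fam70b*, *Ppap2a*, *Ldha*, *Slc2a1* and *Adm* in every Ins1-high cell, by arm and *Mmp13* group. Points are cells and bars are group medians, which for *Cd24* are 1027, 38.3, 1410 and 83.5 RPM from left to right, and the ranges of the groups overlap in every panel.

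The list for glycolysis and hypoxia had the highest median difference of the lists with at least 5 members considered, a rank that holds for this measure and split. By the median log2 ratio the G2 and M phase list was higher (1.47 against 0.75), and with *Mmp13* of 100 RPM or more the median differences of that list (1.22), of AP-1 and immediate early genes (1.10) and of the NF-kB list (1.07) were higher than that of glycolysis and hypoxia (1.01). Of its 18 genes, 14 were considered, 14 lay above 0, 5 were counted higher (35.7%, against 5.23% of all genes) and 0 lower, with a median difference of 1.20 against 0.07 over all genes. That count depended on the setting, with 2 of 14 counted higher with *Mmp13* of 100 RPM or more and 3 of 14 after thinning, with any *Mmp13* read against none or with a pseudocount of 10 RPM. Over all genes, 538 of 8387, 480 of 9411, 457 of 8387 and 123 of 8387 were counted higher under these settings, in that order. *Ldha*, which encodes the lactate dehydrogenase subunit that beta cells normally keep silent, ran from 1.71 through 305 to 1437 RPM in Mmp13-high cells and from 0 through 15.3 to 1033 RPM in Mmp13-low cells. It was at 10 RPM or more in 14 of 16 and 24 of 42 cells. *Slc2a1*, which encodes the glucose transporter GLUT1, had medians of 147 and 30.5 RPM, and its log2 ratio of 1.54 became 0.96 without cell 90, where it was highest. *Adm*, which encodes the vasodilator peptide adrenomedullin, had medians of 543 and 77.3 RPM and a difference of 2.69. The other members counted higher were *Pdk1*, chosen after its value was seen, which encodes a kinase that shuts off pyruvate dehydrogenase, and *Egln3*, which encodes an oxygen-dependent prolyl hydroxylase. They rest on few cells, with 5 of 16 and 6 of 42 cells at 10 RPM or more for *Pdk1*, which was not counted without cell 63 (difference 0.84, log2 ratio 0.72), and 4 of 16 and 5 of 42 for *Egln3*, whose log2 ratio of 1.75 became -0.03 without cell 64. Averaged per cell over the 14 genes, the mean log2(RPM + 1) ran from 5.61 through 7.48 to 8.80 in Mmp13-high cells and from 2.43 through 6.12 to 8.12 in Mmp13-low cells, and 13 of the 16 Mmp13-high cells lay above the Mmp13-low median. The list median was 1.08 in DMSO, where 2 of 15 members were counted higher and 0 lower (3.86% and 8.21% of all genes considered there), and the same per-cell average there had medians of 7.18 and 5.79. Of the members counted in GNF4877, *Egln3* was also counted higher in DMSO. *Ldha* (difference 3.00, log2 ratio 0.99), *Slc2a1* (1.34 and 0.29) and *Pdk1* (0.30 and 0.03) were not. Neither was *Adm* (0.81 and 1.47), with medians of 5.11 RPM in Mmp13-high and 7.12 RPM in Mmp13-low DMSO cells. Without *Ccnb1*-positive cells the median in GNF4877 was 1.32, though cells read for *Mki67* remained among those kept. When any *Mmp13* read was set against none, it was 0.66, under the 0.95 of the G2 and M phase list and the 0.79 of the NF-kB list.

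The hypoxia-inducible factors themselves went in opposite directions. *Epas1*, which encodes HIF-2α, was at 10 RPM or more in 6 of 16 Mmp13-high cells and 2 of 42 Mmp13-low cells, with a difference of 1.93 and a highest value of 236 RPM. *Hif1a*, which encodes HIF-1α, was at that level in 6 of 16 and 27 of 42 cells (medians 1.39 and 35.3 RPM, difference -1.79). Of the list of candidate regulators of *Mmp13*, 23 genes in all, these were the members counted among 4 considered. That is 25% in either direction, beside 5.23% higher and 3.35% lower of all genes. The other members considered, *Ets2* and *Elf3*, which encode ETS family factors, had differences of 1.22 and 2.05 but log2 ratios of 0.95 and 0.73. *Runx2*, a known activator of *Mmp13* in bone, was too low to be considered. In DMSO 1 of 11 members was counted higher and 1 lower (3.86% and 8.21% of all genes considered there), with a list median of -0.18. These were other genes, since neither *Epas1* (difference 0.51, log2 ratio 0.27) nor *Hif1a* (-1.43 and -0.47) was counted in DMSO.

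AP-1 and immediate early genes had 13 of 22 members considered, 2 higher (15.4%, against 5.23% of all genes), 1 lower (7.69%, against 3.35%) and a median of 0.57, which was 1.10 with *Mmp13* of 100 RPM or more. *Dusp1*, which encodes a phosphatase that switches off MAP kinases, had medians of 95.2 and 0 RPM and a difference of 3.32, with 10 of 16 and 10 of 42 cells at 10 RPM or more. *Zfp36*, whose protein promotes decay of AU-rich mRNAs, had medians of 148 and 40.1 RPM and a log2 ratio of 1.08 that became 0.74 without cell 32. The genes of the AP-1 subunits were not counted. *Fos* had mean RPM of 286 and 262 and *Jun* of 21.4 and 14.7, and *Jun* had a difference of 1.37 with a log2 ratio of 0.51. *Nr4a1*, which encodes an orphan nuclear receptor induced by depolarisation, was counted lower, with 1 of 16 and 12 of 42 cells at 10 RPM or more. With any *Mmp13* read against none its log2 ratio changed sign. Under that split, with *Ins1* of 10000 RPM or more or with a pseudocount of 10 RPM, 0 members were counted lower. In DMSO the list median was -0.03 and 0 of 17 members were counted higher and 2 lower (3.86% and 8.21% of all genes considered there).

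The NF-kB and cytokine response list had 11 of 26 members in the table considered, 4 counted higher (36.4%, against 5.23% of all genes), 0 lower, and a median of 0.65. With *Ins1* of 10000 RPM or more 2 members were counted higher, beside 439 of 7959 genes in all. *Sod2*, which encodes the mitochondrial superoxide dismutase, had medians of 1133 and 239 RPM and a difference of 1.88, and the ranges overlapped. *Stat3*, which encodes a transcription factor of cytokine signalling, had medians of 211 and 65.1 RPM, and its log2 ratio of 1.08 became 0.95 without cell 16. *Cxcl16* and *Birc3*, which encode a chemokine and an inhibitor of apoptosis, had differences of 1.92 and 1.34 that rested in part on cell 72, the cell with the most *Mmp13*. Without that cell the log2 ratio of *Cxcl16* went from 2.68 to 0.90 and the difference of *Birc3* from 1.34 to 0.96. *Cxcl10*, another chemokine gene, was not counted, with a difference of -0.28. In DMSO the list had a median of -0.17, with 1 of 11 members higher and 1 lower (3.86% and 8.21% of all genes considered there), and the lower one was *Birc3*.

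Targets of p53 and DNA damage signalling had 10 of 23 members considered, 3 counted higher (30%, against 5.23% of all genes), 0 lower, and a median of 0.15. With any *Mmp13* read against none 0 were counted higher, and with *Mmp13* of 100 RPM or more, *Ins1* of 10000 RPM or more or a pseudocount of 10 RPM 1 was. Over all genes, 457 of 8387, 538 of 8387, 439 of 7959 and 123 of 8387 were counted higher under these settings, in that order. *Gadd45a*, which encodes a stress-induced growth arrest protein, had medians of 33.7 and 0 RPM and 10 of 16 and 11 of 42 cells at 10 RPM or more. *Gadd45b*, a relative of it, was at that level in 5 of 16 and 3 of 42 cells, and its log2 ratio of 1.22 became -0.09 without cell 72. *Aen*, which encodes an apoptosis-enhancing nuclease, had a difference of 1.20 that became 0.85 without cell 19. *Mdm2* and *Ccng1*, well-known direct targets of p53, had differences of -0.78 and -0.75, so the genes counted do not stand for the list as a whole. In DMSO 0 of 16 members were counted higher and 1 lower (3.86% and 8.21% of all genes considered there), with a list median of -0.27.

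The G2 and M phase list shares its cells with *Ccnb1*, which is itself a gene of these phases. Of its 58 members in the table, 37 were considered, 37 lay above 0, 11 were counted higher (29.7%, against 5.23% of all genes) and 0 lower, with a median of 0.85. With *Mmp13* of 100 RPM or more 22 of 37 were counted higher, and with a pseudocount of 10 RPM 0 of 37. Over all genes these settings gave 538 and 123 of 8387 counted higher. *Ube2s*, whose product extends ubiquitin chains for the anaphase-promoting complex, was at 10 RPM or more in 8 of 16 and 5 of 42 cells. *Ccnb2*, *Cenpf* and *Cenpe*, which encode cyclin B2 and proteins of the kinetochore, had differences of 1.59, 1.45 and 1.41. None of these 3 was counted without cell 40 (log2 ratios of 0.86 for *Ccnb2* and 0.98 for *Cenpe*, and a difference of 0.91 for *Cenpf*). The per-cell average over the 37 genes had medians of 1.10 and 0.73, with highest cells at 8.28 and 7.44, so a few cells carried the list in each group. When the 5 Mmp13-high and 6 Mmp13-low cells with *Ccnb1* were left out, 7 members could still be considered, 0 were counted, and the median was -0.10, a loss that such a split largely fixes beforehand. The S phase list, with 28 of 43 considered, had a median of 0.23, with 3.57% of members in either direction beside 5.23% and 3.35% of all genes: 1 member higher (*Rrm2*, ribonucleotide reductase) and 1 lower (*Fen1*, the flap endonuclease of lagging strand synthesis, with a difference of -0.98 without cell 10 and -0.88 without Mmp13-low cell 11). Without *Ccnb1*-positive cells its median was -0.36, with 0 members higher and 3 lower of 21, beside 399 and 528 of 7557 genes in all. In DMSO the G2 and M phase list had 8 members considered and 0 counted, with a median of 0.05. The S phase list had 1 of 24 members higher and 2 lower there, with a median of -0.29 (3.86% and 8.21% of all genes considered in DMSO).

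**Figure D3:**
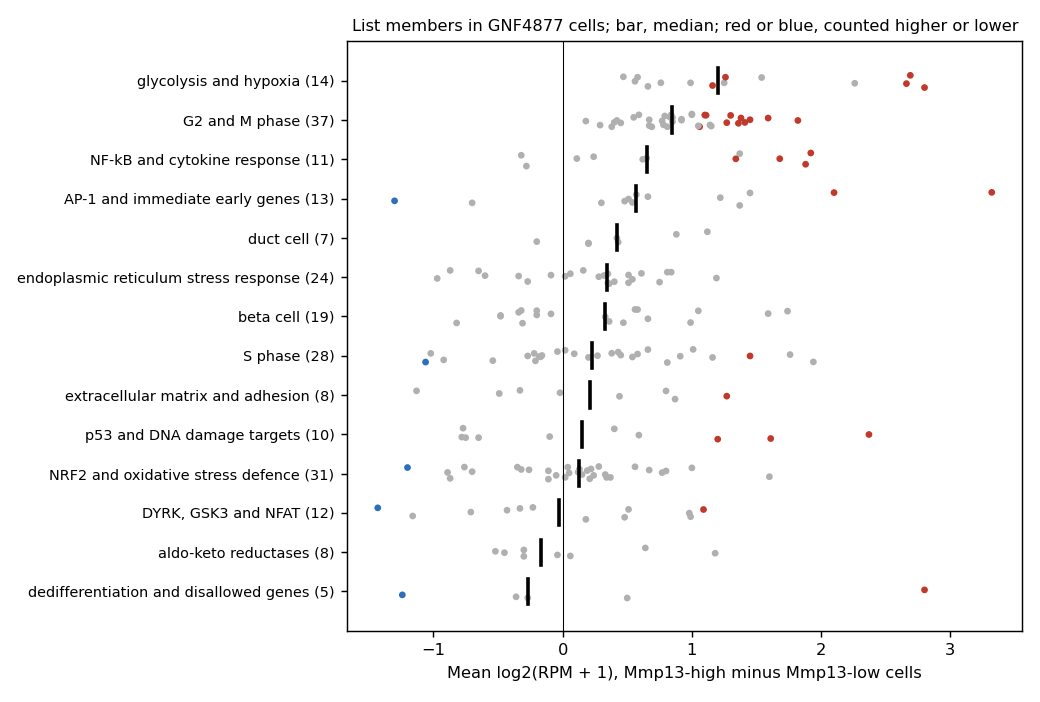
Difference of the mean log2(RPM + 1), Mmp13-high minus Mmp13-low GNF4877 cells, for the members of each list with at least 5 members considered (number in brackets). Points are genes, red where counted higher and blue where counted lower, bars are list medians, and glycolysis and hypoxia has the highest median, 1.20, with 14 of 14 members above 0.

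Most other genes of proteases and their inhibitors were too low to be considered. Of 35 other metalloproteinase, ADAM and inhibitor genes, 4 were considered, 1 was counted higher (25%, against 5.23% of all genes) and 0 lower (3.35% of all genes). That gene was *Timp1*, which encodes a secreted inhibitor of metalloproteinases including collagenase 3, with 0 through 110 to 1667 RPM in Mmp13-high and 0 through 0.679 to 858 RPM in Mmp13-low cells. It was at 10 RPM or more in 11 of 16 and 15 of 42 cells, and its difference was 2.83. An enzyme gene and the gene of its inhibitor were thus high in many of the same cells, while in DMSO the *Timp1* difference was 0.08. *Mmp14*, which encodes a membrane-bound activator of procollagenase 3, had no read in any of the 58 cells. *Mmp2*, which encodes gelatinase A, did not exceed 0.711 RPM. *Adam9* and *Adam10*, which encode sheddases, had differences of -0.12 and -0.59 with log2 ratios of -0.60 and -2.62. *Mmp24*, a membrane-type member, had a difference of 0.91 with a log2 ratio of 1.62, short of the count. Of the plasminogen system, 2 of 11 genes were considered and 0 counted, and *Plat*, the tissue plasminogen activator gene, was too low to be considered, with 3 of 16 and 2 of 42 cells at 10 RPM or more. Among matrix and adhesion genes, *Lgals3*, the galectin 3 gene, had medians of 293 and 1116 RPM and a difference of -1.13 with a log2 ratio of -0.72, short of the count.

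Stress and defence lists held few counted genes in GNF4877, to be read beside the 5.23% higher and 3.35% lower of all genes. Of 40 NRF2 and oxidative defence genes in the table, 31 were considered, 0 were counted higher and 1 lower (3.23%, against 3.35% of all genes), with a median of 0.13. The one lower gene was *Abcc4*, which encodes an efflux transporter, and *Hmox1*, the haem oxygenase gene, had medians of 3772 and 1491 RPM with a difference of 0.34. *Fth1*, the ferritin heavy chain gene, had medians of 11212 and 9011 RPM. Of 15 other aldo-keto reductase genes, 8 were considered, 0 were counted, and *Akr1b1*, the aldose reductase gene, had medians of 295 and 266 RPM. With any *Mmp13* read against none 2 of the 8 were counted higher and 2 lower, beside 457 and 218 of 8387 genes in all. All 24 endoplasmic reticulum stress genes were considered, 0 were counted, and the median was 0.34. *Hspa5*, the gene of the chaperone BiP, had medians of 5531 and 5951 RPM. In DMSO 0 of the 24 endoplasmic reticulum stress genes were counted higher and 5 lower, with a median of -0.73. The NRF2 list had 0 higher and 3 lower of 33 there (median -0.34), and the other aldo-keto reductases 0 and 1 of 8 (median 0.04). Of all genes considered in DMSO, 3.86% were counted higher and 8.21% lower.

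Other lists held few countable genes, to be read beside the 5.23% higher and 3.35% lower of all genes. Of 21 Wnt and beta-catenin target genes in the table, 4 were considered and 1 was counted higher, *Ctnnb1*, the gene of beta-catenin itself (difference 1.58, and -1.46 in DMSO, where it was counted lower), while the target *Ccnd1* had a difference of 0.07. Of the DYRK, GSK3 and NFAT genes, 12 of 21 were considered, with *Nfatc3* higher and *Clk2*, a splicing kinase gene, lower. Without cell 72 the log2 ratio of *Nfatc3* went from 1.23 to -0.45, while its difference went from 1.09 to 0.64. In DMSO *Nfatc3* was counted higher as well (difference 1.27, log2 ratio 1.30), and *Clk2* was not counted (1.26 and 0.79). That list had 1 of 16 members higher and 3 lower in DMSO, with a median of -0.48 (3.86% and 8.21% of all genes considered there). Of 22 YAP and TGF-beta targets, 1 was considered and 0 counted. The dedifferentiation list had 5 of 18 members considered, with *Ldha* higher, *Oat* lower and a median of -0.27, whose sign depended on the setting (0.44 with any *Mmp13* read against none, 0.55 with *Mmp13* of 100 RPM or more, 0.14 with *Ins1* of 10000 RPM or more). In the marker lists, *Timp1* was counted higher, and *Sst* and the podoplanin gene *Pdpn* lower, the last with 1 of 16 and 11 of 42 cells at 10 RPM or more. The count of *Sst* rests on Mmp13-low cell 37, without which its difference was -0.95. Its log2 ratio changed sign with any *Mmp13* read against none.

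The remaining genes among the 20 largest differences are named for their difference alone. *Prkar1b*, a regulatory subunit gene of protein kinase A, had medians of 102 and 2.07 RPM. *Sh3gl1*, the endophilin A2 gene, had medians of 56.7 and 0 RPM. *Tpp2*, the gene of a large cytosolic peptidase, had medians of 184 and 8.57 RPM. *Trappc13* is a gene of a vesicle tethering complex, and *Rab5b* is an early endosome GTPase gene whose log2 ratio of 1.12 became 0.88 without cell 19. *Ptk2*, which encodes focal adhesion kinase, had medians of 75.7 and 0 RPM. *Ninj1*, whose protein ruptures the plasma membrane in dying cells, was at 10 RPM or more in 15 of 16 and 29 of 42 cells, with medians of 284 and 62.8 RPM. *Ppp2r1b*, *Man1b1*, *Aig1*, *Camlg*, *Eri2* and *Aagab* complete the set, with differences from 2.73 to 2.91. *Aagab* was counted under 7 of 12 other settings and in 54 of 58 runs with 1 cell left out. Its log2 ratio of 1.07 became 0.90 without cell 19. Of the 20 genes, 9 were counted under each of 12 other settings and with each of the 58 cells left out in turn: *Fam70b*, *Cd24*, *Dusp1*, *Prkar1b*, *Sh3gl1*, *Tpp2*, *Timp1*, *Ldha* and *Errfi1*.

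Genes counted lower were led by *Ube2b*, which encodes a ubiquitin-conjugating enzyme of DNA damage tolerance, with a difference of -2.87. It ran from 0 through 24.7 to 243 RPM in Mmp13-high and from 0 through 109 to 611 RPM in Mmp13-low cells, and was at 10 RPM or more in 10 of 16 and 39 of 42 cells. *Aprt*, the adenine salvage enzyme gene, had medians of 6.14 and 61.7 RPM, and its log2 ratio of -1.08 became -0.99 without cell 29. *As3mt*, the arsenite methyltransferase gene, was at 10 RPM or more in 1 of 16 and 21 of 42 cells. A smaller share of cells at 10 RPM or more is common to these genes. *Tmem8a* (now *Pgap6*) had no read in the 16 Mmp13-high cells and a mean of 64 RPM in Mmp13-low cells, of which 12 of 42 were at 10 RPM or more (28.6%, 15.7% to 44.6%) against 0 of 16 (upper bound 20.6%), so the intervals overlap. *Mgmt*, which encodes the methylguanine repair enzyme, had medians of 6.91 and 72.2 RPM, and it was the only gene of the 10 lowest that was also counted lower in DMSO (medians 31.5 and 113 RPM). *Slc30a9*, *Mcts2*, *Lrp8*, *Gpx3* and *Actl6a* were the others, with differences between -2.61 and -2.03. With any *Mmp13* read against none only 1 of these 10 genes, *Gpx3*, was still counted lower, and the log2 ratio of *Lrp8* changed sign. *Aprt* was counted under 7 of 12 other settings and in 50 of 58 runs with 1 cell left out.

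The beta cell genes behaved otherwise in DMSO. There, 8 of 21 beta cell markers considered were counted higher in Mmp13-high cells and 0 lower (3.86% and 8.21% of all genes considered in DMSO), with a median of 1.36 against 0.33 in GNF4877. *Ins1*, part of the selection but not of the split, had medians of 80408 and 32412 RPM in DMSO. *Slc2a2* had medians of 3416 and 347 RPM there. Mmp13-high DMSO cells were thus rich in beta cell transcripts. In GNF4877 the list depended on the cells kept. Without *Ccnb1*-positive cells 0 of 18 members were counted higher and 3 lower with a median of -0.30. Over all genes, 399 of 7557 were counted higher there and 528 lower. With any *Mmp13* read against none 2 of 19 members were counted higher, beside 457 of 8387 genes in all. The difference between the arms was not tested. A second hormone was present in 2 of the 9 Mmp13-high and 23 of the 66 Mmp13-low DMSO cells. Median mapped reads were 902540 in the Mmp13-high and 1289233 in the Mmp13-low DMSO cells. The mesenchymal marker sum had medians of 104 and 135 RPM there, with highest values of 900 and 28908 RPM. The part of second hormones, depth and mesenchymal markers in the DMSO values was not tested.

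Ranked by Spearman correlation with *Mmp13* over the 58 Ins1-high GNF4877 cells, which differ in depth, *Ppap2a* came highest at 0.53, with 0.48 over the 75 DMSO cells. *Sh3gl1* (0.51), *Tmem189* (0.50) and *Tada2b* (0.48) followed, with -0.08, 0.05 and -0.02 in DMSO. *Ldha* stood at 0.46 and 0.38, and the other 5 of the 10 highest were uncharacterised loci and a *Gapdh* pseudogene, whose reads can be shared with a near-identical gene. For *Akr1b8* the value was 0.44 in GNF4877 and 0.04 in DMSO, and for *Ccnb1* 0.27 and -0.06. The median over all genes considered was 0.02 and the 95th percentile 0.26. Such ranks lean on cells with 1 or a few reads, and they give no order among genes this close.

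The promoter of *Mmp13* is printed because these cells differ by that transcript. RefSeq (assembly GRCr8) places its 250 bases upstream of the start at chr8:12782579-12782828, on the plus strand, and the capitals mark a match to the AP-1 motif TGANTCA and 2 matches to the reverse complement of ACGTG, the core of the hypoxia response element, a motif added after the expression values were seen. For comparison, the stretch of *Ldha*, at chr1:106507842-106508091 on the plus strand, is given with its matches to ACGTG on either strand, which overlap in part.
Mmp13: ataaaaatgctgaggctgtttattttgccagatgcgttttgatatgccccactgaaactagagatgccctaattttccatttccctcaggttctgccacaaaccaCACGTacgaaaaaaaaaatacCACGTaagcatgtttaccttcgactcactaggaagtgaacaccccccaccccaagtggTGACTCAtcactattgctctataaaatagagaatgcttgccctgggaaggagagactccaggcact
Ldha: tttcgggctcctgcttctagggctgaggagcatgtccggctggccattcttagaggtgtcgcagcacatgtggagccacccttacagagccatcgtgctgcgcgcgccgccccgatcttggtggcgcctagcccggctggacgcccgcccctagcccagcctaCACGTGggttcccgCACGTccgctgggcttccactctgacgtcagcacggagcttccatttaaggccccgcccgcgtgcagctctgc
The AP-1 match of *Mmp13* covers positions -66 to -60, and is found on both strands because the motif TGANTCA is a palindrome. The ACGTG matches lie at -145 to -141 and -124 to -120. In windows of 250 bases before to 50 bases after the start, both strands searched, TGANTCA was present in 2012 of 27457 promoters (7.33%), in 0 of the 19 of the 20 genes with the largest differences that have a window, and in 17 of 335 of all genes counted higher (5.07%), against 267 of 5808 genes considered (4.60%). The core of the antioxidant response element, TGACNNNGC, was present in 12.2% of all promoters, 15.6% of genes considered and 11.6% of genes counted higher, among them *Cd24* and *Timp1*, and in neither *Mmp13* nor *Akr1b8*. ACGTG was present in 19.7% of all promoters, 28.3% of genes considered and 27.8% of genes counted higher, so its share among the latter is that of the background, and in 6 of the 19 highest genes with a window (31.6%) and 3 of the 5 glycolysis and hypoxia genes counted higher. A match describes letters only and names no bound factor.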

How the data were processed

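Cells had been sequenced with single 50 bp reads. The submitters' processing notes name CASAVA 1.8.2, BWA 0.5.9 and SAMtools 0.1.19, and the authors deposited RPM, which scales the reads of a transcript to the mapped total of its cell without regard to transcript length. The study's methods name the mouse transcriptome, while the rows are rat RefSeq transcripts. Values of 0.01 (69.7% of all) were set to 0, and the 27586 rows were added up to 24113 genes. Low values were whole multiples of 1 step per cell (100% of values up to 20 reads within 0.1 of a read), which gave mapped reads. The filter of 300000 RPM removed 1 Ins1-high GNF4877 cell. Doublets were not removed.

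The members and lists were chosen with earlier results of these data known. Named were *Mmp13*, *Akr1b8*, *Ins1*, *Ccnb1*, the 20 genes counted higher with the largest difference, the 10 counted lower with the lowest, and up to 4 members of each of 27 lists (those counted, and where fewer than 2 were, the 2 with the highest mean RPM). Genes named beyond this rule as members of a list, as likeness ranks, as cell type markers or among shared genes were chosen after their values were seen, as was the motif ACGTG. Accessions of 17365 rows were found in the RefSeq gene table of GRCr8, used for current symbols and promoters. Likeness, lists and comparisons used 1 RPM as pseudocount. The code of the comparison was checked on simulated cells, which is no test of the cells described here. Figures were drawn with matplotlib 3.10.9, and all else ran in Python 3.11.15 with scipy 1.17.1, pandas 2.3.3 and numpy 2.4.6.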

Additional observations from a re-analysis of the deposited data

Results flagged for a closer look

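*Mmp13* was also read outside the Ins1-high cells. GNF4877 cell 85, which is not Ins1-high and held *Gcg* of 155408 RPM, had *Mmp13* of 683 RPM, above the highest such DMSO cell at 172 RPM. That cell had 421665 mapped reads and a mesenchymal marker sum of 2002 RPM. At 10 RPM or more it was found in 3 of 18 GNF4877 cells that are not Ins1-high and hold *Gcg* of 1000 RPM or more (16.7%, 3.58% to 41.4%) and in 2 of 5 in DMSO (40.0%, 5.27% to 85.3%), and in none of these was *Akr1b8* above 4.69 RPM. The difference was not tested.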

How the results depend on the processing

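No paired analysis was possible because the numbers in the titles name cells within an arm, each arm is 1 sample, and no result comes from a test. For counting any read of the gene, the *Akr1b8* share became 81.2% in Mmp13-high and 52.4% in Mmp13-low cells. With any *Mmp13* read against none (38 and 20 cells), the *Ccnb1* share of the low group was 5.00%, and the log2 ratios of *Lrp8*, *Nr4a1* and *Sst* turned to 0.04, 0.29 and 4.68, while that of *Gad2* became -0.50. Under that split 141 of the 439 genes counted higher and 42 of the 281 counted lower kept their count. A pseudocount of 10 RPM gave 123 genes higher and 27 lower, one of 0.1 RPM gave 498 lower, thinning to 100000 reads gave 437 lower, and leaving out *Ccnb1*-positive cells gave 528 lower. Without those cells the G2 and M phase median became -0.10, with 7 members considered, and the log2 ratio of *Gad2* became -0.29. The log2 ratio of *Egln3* was -0.03 without cell 64. Values given without 1 cell leave out a Mmp13-high cell unless a Mmp13-low cell is named. Leaving out each Mmp13-low cell was added after seeing the data, and of the named genes counted it ended the count of *Sst* (difference -0.95) and *Fen1* (-0.88). The causes of the other changes were not tested. With each cell left out in turn, the *Akr1b8* shares ran from 40.0% to 46.7% and 17.1% to 19.5%, the *Ccnb1* shares from 26.7% to 33.3% and 12.2% to 14.6%, the genes higher from 401 to 479 and the genes lower from 261 to 335. Of the 20 and 10 genes named, 9 and 1 were counted under every setting and every cell left out. The other *Akr1b8* and *Ccnb1* shares stayed within their intervals and the other counts over all genes within 1.5 times. Counts within lists varied as well. With *Mmp13* of 100 RPM or more, 2 of 14 glycolysis and hypoxia genes, 22 of 37 G2 and M phase genes and 1 of 10 p53 genes were counted higher. Over all genes this count was 538 of 8387. With a pseudocount of 10 RPM these lists had 3, 0 and 1 counted higher, beside 123 of 8387 genes in all. With 16 cells, an interval of a share is wide, and 1 cell can set a mean.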

Other observations

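The individual Mmp13-high cells did not share 1 profile. The 7 *Akr1b8*-positive ones included cells 90 and 32, in which *Cd24* was at 5.14 and 1.46 RPM and *Fam70b* at 0 and 0.732 RPM. In the other *Akr1b8*-positive ones *Cd24* ran from 119 to 1418 RPM, and *Fam70b* was at 162 RPM in cell 36 and 143 RPM in cell 23. The 4 cells with the highest *Fam70b*, from 735 to 1410 RPM, had *Akr1b8* at or under 0.625 RPM. *Adm* was highest in cells 29 and 24, at 3912 and 3415 RPM, and both were *Akr1b8*-positive, at 50.1 and 244 RPM. These values were picked after they were seen.

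The limits are those of the design. Each arm is 1 sample, so no statement about animals can be made, and 16 cells leave wide intervals. The groups were made from a transcript read in the same cells, and a Mmp13-low cell can hold *Mmp13* that was not captured. Many genes counted here rest on a few cells, and the share of the GNF4877 gene set counted in DMSO with the same direction, 9.54%, stands against 3.62% of all genes considered in both arms, and the share with the opposite direction, 10.0%, against 7.95%. Doublets, cell cycle and stress from dispersal were not separated. mRNA says nothing of secreted or active collagenase.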
